A study of Mus musculus with 10 samples.

Results

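Forced expression of Lin28a in the embryonic tail was measured as the difference between 4 mouse tail bud libraries with a Cre allele and 3 without it. These 7 of the 10 RNA-seq libraries of the series were taken by their labels, and the fit did not include the 3 wild-type libraries. The libraries with Cre, called Lin28a-induced (n = 4, numbered 2 to 5), carried TRE-Lin28a, a Lin28a transgene that answers to doxycycline, RLSL-rtTA, a Cre-activated allele of the transactivator, and FoxD1-Cre. The no-Cre group (replicates 6, 7 and 8, n = 3) carried TRE-Lin28a and RLSL-rtTA without Cre. Both groups received doxycycline, so the transgenes and the drug are shared and the Cre allele is the labelled difference. All were tail buds, the growing tip of the embryo, microdissected at E12.5. The labels say neither how the Cre allele was made nor that each library is a separate embryo. The p-values then cover the spread among these libraries, which may be technical. They give no batch or date. A group with Cre and no Lin28a transgene was not analysed here, so an effect of the Cre allele itself and one of Lin28a cannot be told apart.

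Lin28a and its paralog Lin28b encode RNA-binding proteins that hold back the maturation of let-7 microRNAs. Mature let-7 in turn guides Argonaute to matching sites in the 3′ UTRs of messenger RNAs and lowers their levels and translation. In the tail bud, progenitors that keep dividing supply the neural tube and the mesoderm of the lengthening axis, until the terminal Hox genes and loss of the progenitors end growth. The study is about the part played by Lin28 and let-7 in that program.

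The recognition code is shown first, because the results on let-7 targets turn on it. RefSeq (GRCm38.p6) lists the mature let-7 family below, written 5′ to 3′ with the seed, bases 2 to 8, in capitals. The 8 forms share the seed GAGGUAG and differ only outside it.
let-7a: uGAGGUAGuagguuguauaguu
let-7b: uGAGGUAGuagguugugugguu
let-7c: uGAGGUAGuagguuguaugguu
let-7d: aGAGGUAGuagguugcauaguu
let-7e: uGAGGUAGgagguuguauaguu
let-7f: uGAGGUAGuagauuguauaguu
let-7g: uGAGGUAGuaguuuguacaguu
let-7i: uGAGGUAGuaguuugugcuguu
A messenger with the complement of the seed, CTACCTC in DNA letters, can pair with every one of them. Trim71, which encodes a ubiquitin ligase and RNA-binding protein of early progenitors, holds 4 such sites in its annotated 3′ UTR on the minus strand of chromosome 9 (GENCODE M21, GRCm38). The 23-base windows below run along the messenger, with the seed match in capitals and the base that follows it last.
Trim71 chr9:114512472-114512494: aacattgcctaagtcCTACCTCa
Trim71 chr9:114512376-114512398: agtgataatttctatCTACCTCa
Trim71 chr9:114509047-114509069: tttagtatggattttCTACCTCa
Trim71 chr9:114509021-114509043: ttggcaaaaagttgtCTACCTCa
Fignl2, which encodes a protein of the fidgetin ATPase family, holds 3 on the minus strand of chromosome 15, and Arid3b, which encodes a DNA-binding protein, holds 1 on chromosome 9.
Fignl2 chr15:101050489-101050511: ccccggctgcagcacCTACCTCa
Fignl2 chr15:101050327-101050349: ggttgtaacccatttCTACCTCa
Fignl2 chr15:101050252-101050274: gcagttgtggcctgtCTACCTCa
Arid3b chr9:57790361-57790383: tatttcaataaagctCTACCTCt
The 7 matches in Trim71 and Fignl2 are followed by A, a base that favours microRNA sites, and the match in Arid3b is not. Mature microRNAs were not measured. Reads were counted at the hairpin loci, and Mirlet7i, the let-7i locus, stood apart. It held 16, 16, 11 and 27 counts in induced replicates 2 to 5 and 0, 1 and 1 in no-Cre replicates 6 to 8 (adjusted p = 9.79e-04). The ratio was 26.3 with a 95% exact interval of 7.01 to 221 for counting error only. The other 9 let-7 loci in the table held 17 counts in all in the induced libraries and 0 in the no-Cre libraries. Of the 17, 10 were in Mirlet7g (6, 1, 3 and 0 in induced replicates 2 to 5). Induced replicate 5 held none of the 17, and 4 of the 9 loci had no count in any library.

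The induced libraries held 29898412 to 39517946 counts and the no-Cre libraries 29300166 to 38893332. Pairs of libraries correlated at 0.989 to 0.993 within the groups and at 0.988 to 0.992 between them, across genes on the log2 scale, so the groups differed little in their whole profile. The first principal component (26% of the variance) separated them, with scores from -23.2 to -6.82 in the induced libraries and from 16.1 to 20.1 in the no-Cre libraries. No 2 libraries held the same values. Xist and Y-linked counts marked induced replicate 5 and no-Cre replicate 7 as female and the other 5 as male, so each group held 1 female library.

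Lin28a itself set the groups apart. It stood at 663, 606, 744 and 729 CPM (CPM are counts scaled to library size and composition) in induced replicates 2 to 5 and at 5.03, 4.53 and 2.64 CPM in no-Cre replicates 6 to 8. Every induced library was far above every no-Cre library, and the fitted difference was 7.37 ± 0.24 SE on the log2 scale (adjusted p = 8.96e-05). Lin28b was at 35.8 ± 5.25 CPM (SD, n = 4) and 31.3 ± 5.06 CPM (SD, n = 3), a log2 difference of 0.19 ± 0.15 SE that did not pass (adjusted p = 0.479). Foxd1, whose name the Cre allele carries and which encodes a forkhead transcription factor of kidney stroma and other mesenchyme, stood at 4.48, 4.82, 4.2 and 7.58 CPM in the induced libraries and 10.2, 7.89 and 8.12 CPM in the no-Cre libraries. Its groups did not overlap and it fell by 0.72 on the log2 scale (adjusted p = 0.0452), a call that held in 1 of 7 fits with a library left out. With the libraries in parentheses left out singly, the adjusted p rose above 0.05, to at most 0.151 for Foxd1 (induced 2, 3 and 4, no-Cre 6, 7 and 8). Of the 60 tested genes next to Foxd1 on its chromosome, 30 on each side, 4 passed and all were lower: Iqgap2, Btf3, Map1b and Serf1. Leaving out a library given in parentheses took the adjusted p above 0.05, at most to 0.22 for Iqgap2 (induced 2, 3 and 4, no-Cre 6, 7 and 8), 0.0579 for Map1b (induced 2, 4 and 5, no-Cre 7 and 8) and 0.0529 for Serf1 (no-Cre 6 and 8). Their share was 6.67%, against 11.2% of all tested genes.

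The response around Lin28a was wide and shallow. Of 15983 tested genes, 1791 (11.2%) passed an adjusted p of 0.05, with 912 (5.71%) higher and 879 (5.5%) lower in the induced libraries. At an unadjusted p under 0.05 there were 4107. The libraries of the groups did not overlap in 3818 tested genes (23.9%). They did not overlap in 1753 of the 1791 called genes, so a lack of overlap adds little to a call. The median size of the difference among the called genes was 0.25 on the log2 scale, and 1500 of them (83.8%) differed by less than 0.5. Only 17 rose and 44 fell by 2-fold or more. The share called grew with expression, from 1.4% of genes under 1 CPM to 20.6% of genes at 100 CPM or more, and precision grows with counts in the same way. The balance of directions also changed with level: 11 rose and 25 fell under 1 CPM, 78 and 148 from 1 to 10 CPM, 531 and 433 from 10 to 100 CPM, and 292 and 273 above that. By gene length, in 5 equal classes, the longest genes (68.7 kb or more) had 159 rises and 280 falls, and the shortest had 86 and 121. The plot of change against level shows this pattern.

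**Figure D1:**
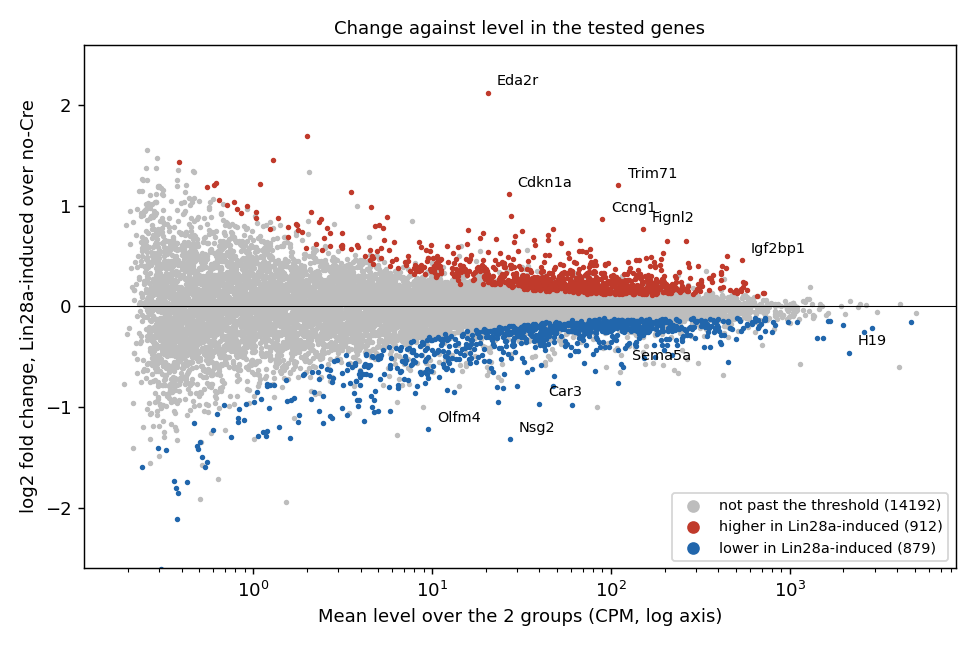
Log2 fold change of each tested gene, Lin28a-induced over no-Cre, against its mean level (CPM, log axis); coloured points passed an adjusted p of 0.05 and 3 called genes, Lin28a among them, lie outside the axis limits. Most called genes sit close to 0, and those of low level are mostly falls.

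How far these calls depend on single libraries was uneven. Leaving out no-Cre replicate 7 left 861 called genes, no-Cre replicate 8 left 1078, no-Cre replicate 6 left 1084 and induced replicate 4 left 1180. In all, 651 of the 1791 (378 higher and 273 lower) passed with any 1 library left out, and 1788 kept their direction in all 7 such fits. When the wild-type libraries were added to the fit and shared its spread, 476 of the 1791 still passed, 288 higher and 188 lower. All of the 1790 tested there kept their direction. That fit takes the direction from the same 7 libraries, so this is no separate check. Below, a gene is called robust when it passed with each of the 7 libraries left out in turn.

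Messengers known as let-7 targets moved in part, and mostly upwards. Of 56 tested members, 14 rose, 1 fell and 41 did not pass, with a median log2 difference of 0.02 against 0.00 over all genes. Over all genes 5.71% rose and 5.5% fell. Trim71 stood at 132, 145, 161 and 179.8 CPM in the induced libraries and 74.6, 67.1 and 58.8 CPM in the no-Cre libraries. All 4 induced values lay above all 3 no-Cre values, by 1.21 ± 0.14 SE on the log2 scale (adjusted p = 0.00431). Fignl2 rose from 122, 113 and 98.7 to 162, 182, 199.8 and 216 CPM (0.77 ± 0.12 SE, adjusted p = 0.0107). Arid3b rose from 226, 213 and 178 to 307, 311, 335 and 341 CPM (0.65 ± 0.08 SE, adjusted p = 0.00125). Neither had an overlapping library. Smaller rises were those of Igdcc3, a cell surface immunoglobulin protein (0.54), Igf2bp1, an oncofetal binder of messenger RNA (0.46), Dicer1, the nuclease that makes mature microRNAs (0.38), and E2f5, a cell cycle repressor (0.34). Hic2, Cdc34, Dna2, Tgfbr1, Hmga1 and Plagl2 rose by 0.14 to 0.28. Induced replicate 2 held the lowest Igf2bp1 value of its group, 550.0 CPM, which was still above the no-Cre values of 477, 448 and 442 CPM. Onecut2, a neural and liver transcription factor, was the fall (-0.57, adjusted p = 0.015). Hmga2, a chromatin protein of embryonic cells and a well-known let-7 target, was at 565 ± 56.4 and 582 ± 14.9 CPM, a log2 difference of -0.04 (adjusted p = 0.764). Of the 14 rises 10 were robust, and the same number passed with wild type in the fit. The adjusted p missed 0.05 without any 1 of the libraries in parentheses and reached 0.0774 for Igdcc3 (induced 2 and 4, no-Cre 7 and 8), 0.103 for Hmga1 (induced 5, no-Cre 7 and 8), 0.144 for Plagl2 (induced 3, 4 and 5, no-Cre 6, 7 and 8) and 0.073 for Onecut2 (no-Cre 7 and 8).

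**Figure D2:**
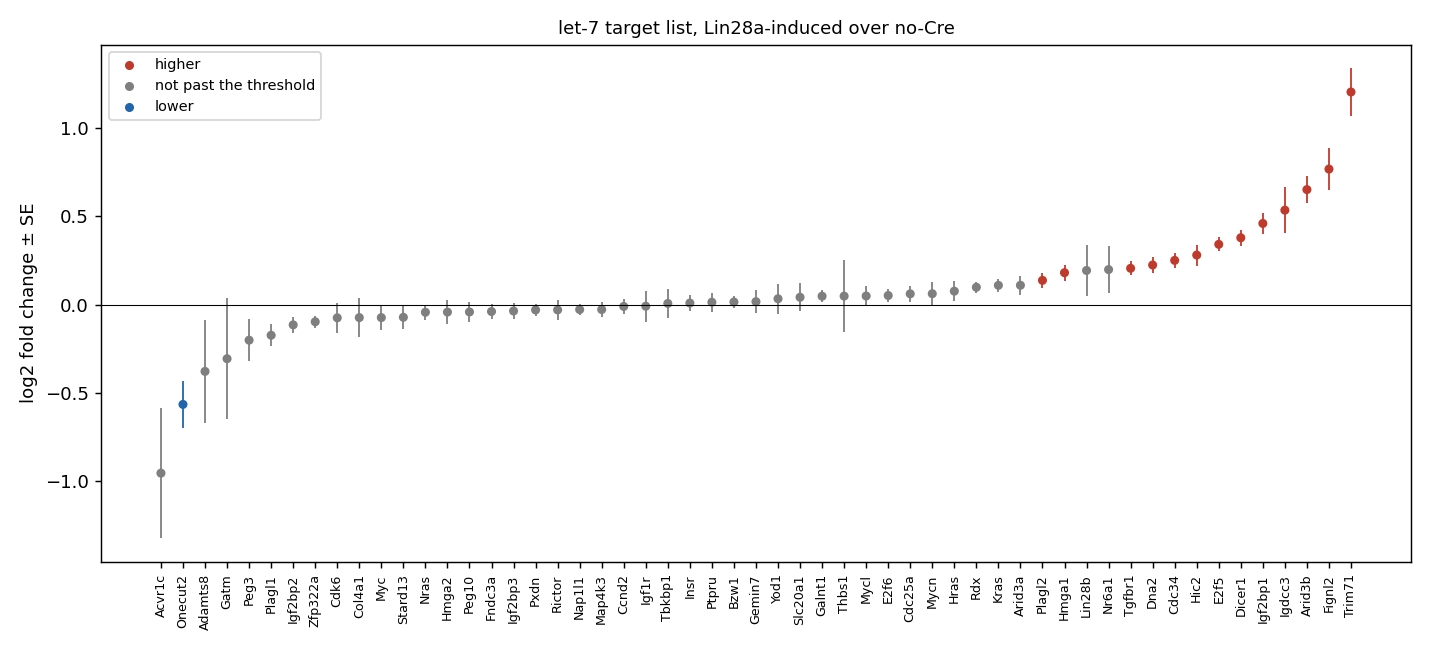
Log2 fold change (Lin28a-induced over no-Cre, bars of 1 SE) of 55 of the tested let-7 targets in order of size, coloured by call. Trim71 lies highest at 1.21, Hmga2 lies at -0.04, and Onecut2 at -0.57 is the only called fall.

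The sites shown at the opening were counted over all genes with an annotated 3′ UTR. At least 1 CTACCTC was held by 13 of the 14 targets that rose (92.9%) and by 28 of the other 42 (66.7%), in a list made up of known targets. Over the tested genes it was 1454 of 13437 (10.8%). Among all genes that rose it was 136 of 850 (16%), with a median UTR of 1807.5 bases, and among those that fell 72 of 829 (8.69%), with a median UTR of 1347 bases. The median UTR over all tested genes was 1202 bases, so UTR length differed along with the share. The riser without a site in its UTR was Dicer1. A match describes letters in the UTR, and binding was not measured.

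Within the machinery that makes and uses microRNAs, 22 tested members included 7 rises and 2 falls (median 0.06), against 5.71% and 5.5% over all genes. The rises count Lin28a itself, the induced gene, and Dicer1, already given with the let-7 targets. Tarbp2, the RNA-binding partner of Dicer, rose from 37.5, 35.4 and 33.4 to 51.4, 43.8, 46.5 and 44.9 CPM (0.40 ± 0.06 SE, adjusted p = 0.00129). Dgcr8 and Drosha, the core proteins of the nuclear Microprocessor, rose by 0.19 and 0.17, Trim25, a ligase that works with Lin28a on let-7 precursors, by 0.24, and the Argonaute gene Ago1 by 0.16. Ago4 fell (-0.49, adjusted p = 0.00485), as did Dis3l2, the nuclease that degrades uridylated let-7 precursors (-0.24, adjusted p = 0.0301). Of the 9 calls, 5 were robust, Lin28a among them. Calls were lost when a library in parentheses was left out, with an adjusted p of up to 0.0565 for Dgcr8 (no-Cre 7), 0.0745 for Drosha (induced 4, no-Cre 6, 7 and 8), 0.0795 for Ago1 (induced 4, no-Cre 6 and 7) and 0.138 for Dis3l2 (induced 2 and 5, no-Cre 6 and 8).

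Several of the larger rises were genes known to be switched on by p53, the transcription factor of the DNA damage and stress response. Over 3 lists of its targets 65 genes were tested, 21 rose, 1 fell and 43 did not pass, against 5.71% of all genes called higher. The direction of these lists was known from earlier results on these libraries. Cdkn1a, the gene of the p21 protein that halts the cell cycle, stood at 38, 33.6, 41.8 and 34.2 CPM in the induced libraries and 19.1, 16.9 and 14.8 CPM in the no-Cre libraries. All induced values were above all no-Cre values (1.12 ± 0.10 SE, adjusted p = 6.67e-05). Ccng1, which encodes cyclin G1, rose from 62.8, 62.6 and 65.6 to 109.7, 117, 128 and 111 CPM (0.87 ± 0.05 SE, adjusted p = 1.70e-06). Phlda3, a repressor of Akt signalling, rose from 21.1, 18.3 and 18.8 to 35.7, 32.3, 39.7 and 37.2 CPM (0.90 ± 0.08 SE, adjusted p = 1.13e-05). In the arrest and feedback list 8 of 23 rose and none fell (median 0.13), with Trp53inp1 at 0.75, Zmat3 at 0.55, Psrc1 at 0.39, Sesn2 at 0.39 and Btg2 at 0.33. Trp53 itself was at 206 ± 12.2 and 192 ± 7.91 CPM (0.10, adjusted p = 0.212). Mdm2, which encodes the ligase that degrades p53 and is a classical target, was at 80.4 ± 4.52 and 77.1 ± 3.2 CPM (0.06, adjusted p = 0.497).

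Among the apoptosis genes of p53, 8 of 19 rose and none fell (median 0.09). Eda2r, a receptor of the tumour necrosis factor family, came second to Lin28a among the rises of genes that reached 1 CPM in either group. It was at 32, 31.3, 37.7 and 33.2 CPM in the induced libraries and 7.43, 6.67 and 9.08 CPM in the no-Cre libraries (2.12 ± 0.10 SE, adjusted p = 4.15e-07). Pmaip1, which encodes the BH3 protein Noxa, rose by 0.77, and Aen, a nuclease, by 0.56. Tnfrsf10b, a receptor for the death ligand TRAIL, rose by 0.48. Bax and Bak1, which open the mitochondrial membrane, rose by 0.31 and 0.24, Ei24 by 0.30 and the caspase gene Casp6 by 0.19. Bbc3, which encodes the BH3 protein Puma, was at 10.5 ± 1.28 and 10.8 ± 0.444 CPM (-0.03, adjusted p = 0.884). The repair and metabolism list had 5 rises and 1 fall among 23 (median 0.04). Its rises were Cpt1c (0.73), a neural form of carnitine palmitoyltransferase, Ak1 (0.62), an adenylate kinase, Zfp365 (0.78), 9030617O03Rik (1.45), the glutamate cyclase gene, and 9630033F20Rik (0.27), the gene for Tigar. The fall was the DNA polymerase gene Polh (-0.23). Of the 21 rises over the 3 lists, 17 were robust and 18 passed with wild type in the fit. With the libraries in parentheses left out singly, the adjusted p rose above 0.05, to at most 0.0824 for Polh (induced 4, no-Cre 6 and 8), 0.0855 for Btg2 (induced 2, no-Cre 6, 7 and 8), 0.111 for Casp6 (induced 2 and 4, no-Cre 6, 7 and 8), 0.0915 for 9030617O03Rik (induced 4, no-Cre 6 and 7) and 0.128 for 9630033F20Rik (induced 4 and 5, no-Cre 6 and 7).

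The 66 genes of the 3 lists found in the counts, tested or not, took 0.282% to 0.306% of the counts in the induced libraries. In the no-Cre libraries they took 0.25% to 0.263%. The groups did not overlap (two-sided exact permutation test, p = 0.0571, the smallest that 4 against 3 libraries can give, so the design cannot reach 0.05). The plot of p53 targets by library shows the 21 genes that rose, which were chosen for that, so their order is a description. Over all 65 genes 42 differences were positive and 23 negative.

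**Figure D3:**
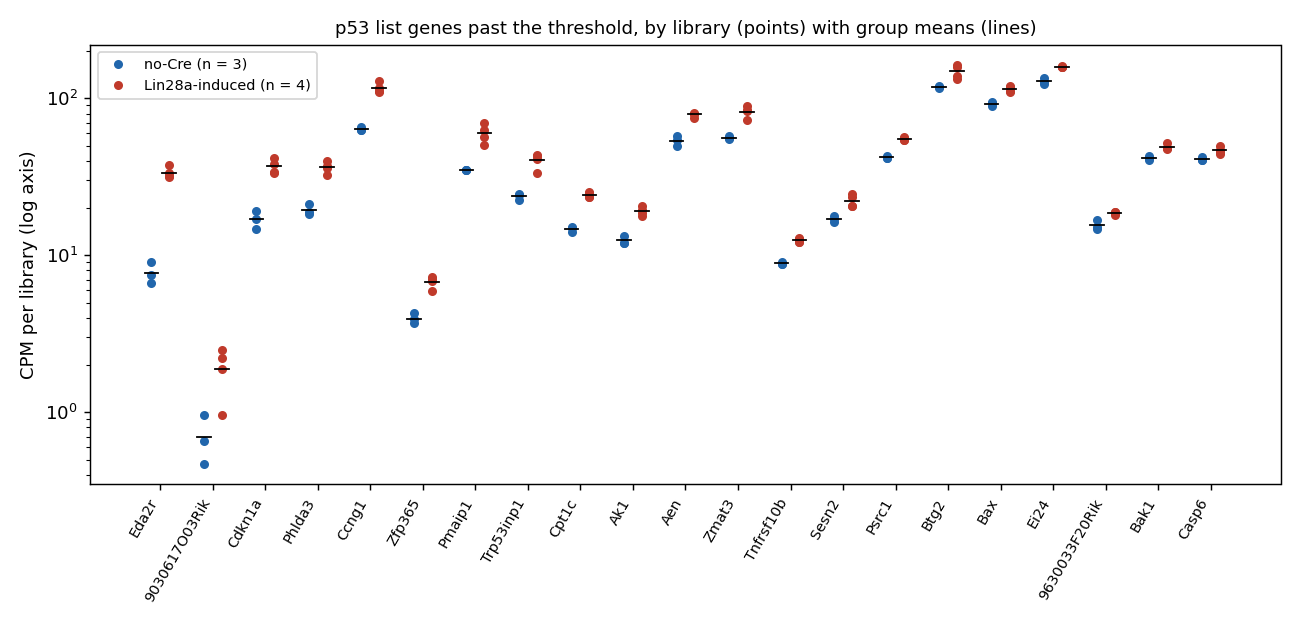
Level of the 21 p53 list genes that rose in each of the 7 libraries (CPM, log axis), with 1 point a library and a line at each group mean. The genes were chosen because they rose, and in each the induced libraries lie above the no-Cre libraries.

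Promoters of the p53 targets that rose were searched for the p53 response element, a pair of 10-base elements, in the 300 bases around the start of the gene (mostly before it, RefSeq GRCm38.p6, on either strand, at most 2 mismatches outside the fixed core letters). It was found in 3 of the 15 with a promoter entry (Cdkn1a, Ccng1 and Zfp365) and in 106 of all 27025 promoters (0.392%). These genes were listed as p53 targets beforehand, so the share describes the list. The promoters of Cdkn1a on chr17:29090729-29091028 (plus strand) and Ccng1 on chr11:40755237-40755536 (minus strand) are printed with the element in capitals. Each element had 1 mismatch.
Cdkn1a promoter: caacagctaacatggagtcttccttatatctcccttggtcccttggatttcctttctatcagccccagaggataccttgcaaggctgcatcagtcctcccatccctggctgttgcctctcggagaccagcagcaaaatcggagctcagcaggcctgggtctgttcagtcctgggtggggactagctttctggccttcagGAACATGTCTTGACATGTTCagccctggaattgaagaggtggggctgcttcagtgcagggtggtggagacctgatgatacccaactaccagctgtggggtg
Ccng1 promoter: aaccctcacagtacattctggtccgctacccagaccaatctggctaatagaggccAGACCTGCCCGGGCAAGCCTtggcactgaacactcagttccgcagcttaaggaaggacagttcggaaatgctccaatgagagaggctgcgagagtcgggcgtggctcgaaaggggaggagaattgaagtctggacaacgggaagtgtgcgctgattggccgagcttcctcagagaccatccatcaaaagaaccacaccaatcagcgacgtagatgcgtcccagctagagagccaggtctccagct
A match in this window is not a measured binding site, and elements farther away were not searched.

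Some Hox genes of the trunk and tail levels rose by small amounts, against 5.71% of all genes called higher. Of 8 tested genes in paralog groups 10 to 12, which pattern the lumbar to caudal region, 6 rose and none fell (median 0.24). Hoxc11 was at 51.2, 48.1, 47 and 48.3 CPM in the induced libraries and 37.5, 35.5 and 34.7 CPM in the no-Cre libraries (0.44 ± 0.05 SE, adjusted p = 1.34e-04). Hoxd10 was at 90.9, 84.2, 81.8 and 74 and 63.7, 67.3 and 65.5 CPM (0.34 ± 0.06 SE, adjusted p = 0.00324). Neither gene had overlapping groups. Hoxc12 (0.29), Hoxc10 (0.24), Hoxd11 (0.24) and Hoxa10 (0.20) also rose. Of the 6, 3 were robust, and 2 passed with wild type in the fit. Leaving out a library given in parentheses took the adjusted p above 0.05, at most to 0.0513 for Hoxc12 (no-Cre 7), 0.0554 for Hoxc10 (no-Cre 7) and 0.053 for Hoxa10 (no-Cre 7). In groups 1 to 9, 8 of 26 rose and none fell (median 0.16), 2 of them robust and 1 of them passing with wild type in the fit. Of the group 13 genes, known for ending axis growth, Hoxc13 rose from 181, 169 and 182 to 211, 214, 223 and 226 CPM (0.30 ± 0.04 SE, adjusted p = 5.56e-04), with an adjusted p of 0.162 once wild type was in the fit. Hoxa13 (-0.09, adjusted p = 0.208), Hoxb13 (-0.04, 0.831) and Hoxd13 (0.11, 0.267) did not pass.

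**Figure D4:**
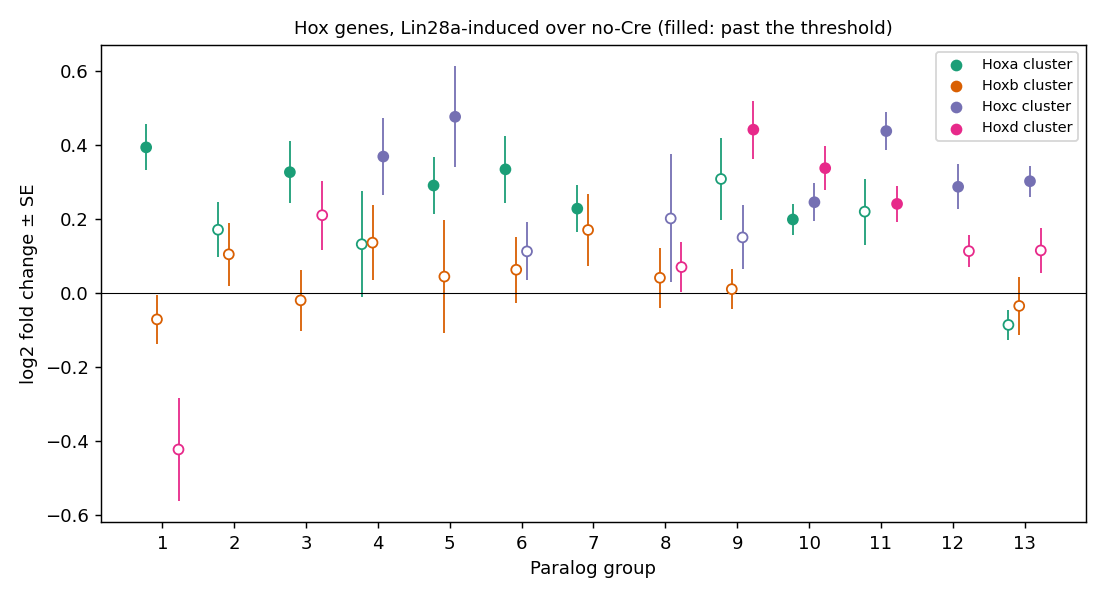
Log2 fold change (Lin28a-induced over no-Cre, bars of 1 SE) of the tested Hox genes by paralog group and cluster, with filled points for called genes. Called genes all lie above 0, and in group 13 only Hoxc13 is called.

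Factors of the tail bud progenitors gave 5 rises and 1 fall among 22 (median 0.07), against 5.71% and 5.5% over all genes. Mixl1, a homeobox gene of the primitive streak, was at 3.0, 3.11, 3.2 and 4.18 CPM in the induced libraries and 2.45, 1.88 and 1.75 CPM in the no-Cre libraries (0.73 ± 0.18 SE, adjusted p = 0.0187). Fgf8, the growth factor that keeps progenitors undifferentiated, rose by 0.44 (adjusted p = 0.0127), Cdx4 by 0.29, Wnt5b by 0.27 and Gdf11, the signal of the trunk-to-tail switch, by 0.16. Sox2, the neural partner of Brachyury in these progenitors, fell from 65.8, 70.7 and 81 to 53.9, 59.7, 53.5 and 47 CPM (-0.44 ± 0.09 SE, adjusted p = 0.0165). T, the gene of Brachyury, was at 459, 362, 374 and 328 and 307, 296 and 290.4 CPM (log2 difference 0.35, adjusted p = 0.101). Its groups did not overlap, as in 23.9% of all tested genes, and it passed with DESeq2 (0.0344) and limma-voom (0.0332). It also passed with a spread estimated without robust weights and without induced replicate 2 (0.00322) or 5 (0.0299). It did not pass with a sex term (0.0985) or with wild type in the fit (0.639). Of the 7 fits with a library left out it passed in 2, and the adjusted p reached 0.254 without no-Cre replicate 8. 2 of the 6 calls were robust, Sox2 was not, and none passed with wild type in the fit. The adjusted p missed 0.05 without any 1 of the libraries in parentheses and reached 0.0827 for Mixl1 (no-Cre 7 and 8), 0.0641 for Fgf8 (no-Cre 7 and 8), 0.104 for Gdf11 (induced 4, no-Cre 6, 7 and 8) and 0.0617 for Sox2 (induced 2 and 4, no-Cre 7). In the presomitic mesoderm list, whose genes run the segmentation clock, Rspo3, a Wnt agonist, rose (0.26, adjusted p = 0.00509), and Foxc1 (-0.38) and Lef1 (-0.29) fell, with 21 of 24 not passing (median -0.10), again a share near that over all genes. The somite and cartilage list had 1 fall, Col11a1 (-0.62), among 24, and the muscle list 1 rise, Des (0.84), among 12. Calls were lost when a library in parentheses was left out, with an adjusted p of up to 0.0772 for Lef1 (induced 5, no-Cre 6 and 8), 0.055 for Col11a1 (no-Cre 7) and 0.0822 for Des (induced 4 and 5, no-Cre 6 and 8).

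Genes listed for the notochord and floor plate, the midline source of Sonic hedgehog, were in part lower. Not all of them are particular to these cells. Of 14 tested, 7 fell, none rose and 7 did not pass, against 5.5% of all genes called lower, and the median was -0.40. T, counted with the tail bud progenitors above, was not in this list. It went the other way without passing (0.35, adjusted p = 0.101). In bulk tissue fewer cells of a type and less RNA per cell cannot be told apart. Shh was at 16.1, 18.6, 15.1 and 17 CPM in the induced libraries and 24.8, 21.5 and 21 CPM in the no-Cre libraries (-0.43 ± 0.08 SE, adjusted p = 0.00522). Car3, a carbonic anhydrase of the notochord, was at 27.5, 29.5, 25.2 and 25.4 and 57.8, 45.9 and 53.7 CPM (-0.97 ± 0.08 SE, adjusted p = 2.27e-05). Neither had overlapping groups, and both were robust. Noto, the notochord homeobox gene (-0.50), Foxa1 (-0.34), Lmx1a (-0.56) and the BMP antagonists Nog (-0.37) and Chrd (-0.42) fell as well. Lmx1a had overlapping groups. These 5 were not robust: 2 of the 7 genes passed without no-Cre replicate 6, 3 without no-Cre replicate 7 or induced replicate 5, and 4 without no-Cre replicate 8 or induced replicate 4, and 1 passed with wild type in the fit. Summed over the list, the level ran from 273.5 to 365.8 CPM in the induced libraries and from 377.5 to 442.3 CPM in the no-Cre libraries. The gut endoderm list, which shares Shh and Foxa1 with this one, was low as well: 3 of 13 fell (those and Olfm4), 10 of 13 differences were negative and the median was -0.34. The part of gut cells in the notochord result was not tested. Of the genes that read the signal, 3 of 12 fell: Ptch1 (-0.23), Hhip (-0.89) and the coreceptor gene Cdon (-0.40), 1 of them robust. With the libraries in parentheses left out singly, the adjusted p rose above 0.05, to at most 0.103 for Noto (no-Cre 6), 0.139 for Foxa1 (induced 4 and 5, no-Cre 6, 7 and 8), 0.136 for Lmx1a (induced 2, 3 and 5, no-Cre 6 and 7), 0.189 for Nog (induced 3, 4 and 5, no-Cre 6, 7 and 8), 0.159 for Chrd (induced 4 and 5, no-Cre 6, 7 and 8), 0.0651 for Ptch1 (no-Cre 6 and 8) and 0.145 for Hhip (induced 3 and 4, no-Cre 6 and 7).

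Neural progenitor genes gave 5 falls and no rise among 21 (median -0.17). Over all genes 5.5% fell and 5.71% rose. Pou3f3, a POU factor, was at 1.84, 1.74, 1.99 and 1.47 CPM in the induced libraries and 3.13, 5.09 and 3.15 CPM in the no-Cre libraries (-1.11 ± 0.20 SE, adjusted p = 0.00296). Sox3 (-0.93) and Nes (-0.20), which encodes the filament protein nestin, fell along with Sox2, and 3 of the 5 were robust. Leaving out a library given in parentheses took the adjusted p above 0.05, at most to 0.0506 for Nes (no-Cre 7). In the neuron list Nsg2 (-1.32, adjusted p = 2.74e-06), a vesicle protein, and Ntrk3 (-1.08, adjusted p = 0.00221), the receptor of neurotrophin 3, fell and 16 of 18 did not pass. The share called was near the 11.2% over all genes. Both falls were robust. The summed neuron genes took 0.00971% to 0.0108% of counts in the induced and 0.0121% to 0.0127% in the no-Cre libraries (two-sided exact permutation test, p = 0.0571), and 4 of the listed genes, all markers of neurons, had no count in any library. Genes for axon guidance and Eph receptors gave 10 falls and 2 rises among 50 (median -0.10), 4 of the 12 calls robust and 1 passing with wild type in the fit.

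Matrix and adhesion genes gave more falls than rises, where all genes gave 5.5% falls and 5.71% rises. Among 43 collagen, laminin and other matrix genes 8 fell and 1 rose (median -0.07). Col14a1, a fibril-associated collagen, was at 13.5, 18.4, 17.1 and 15.2 CPM in the induced libraries and 29.6, 33.8 and 29.2 CPM in the no-Cre libraries (-0.95 ± 0.10 SE, adjusted p = 1.02e-04). Fbn1, which encodes fibrillin, fell by 0.79, Col6a3 by 0.80 and Col5a1 by 0.32 on the log2 scale, and Col6a2 rose (0.59, adjusted p = 0.0116). Of the falls 5 were robust. The adjusted p missed 0.05 without any 1 of the libraries in parentheses and reached 0.0552 for Col6a2 (no-Cre 8). Among 29 cadherins and protocadherins 4 fell and none rose (median -0.13), and 2 of the 4 were robust.

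Fetal growth genes under genomic imprinting gave 5 falls and 1 rise among 22 (median -0.14), against 5.5% and 5.71% over all genes. Of these 6 calls 5 were robust, and 5 passed with wild type in the fit. H19, an abundant noncoding RNA, stood at 1742, 1842, 1792 and 1848 CPM in the induced libraries and 2432, 2487 and 2528 CPM in the no-Cre libraries (-0.46 ± 0.03 SE, adjusted p = 1.70e-06). Igf2, the fetal growth factor encoded next to it, stood at 1247, 1239, 1243 and 1384 and 1570.2, 1598 and 1586 CPM (-0.31 ± 0.04 SE, adjusted p = 2.28e-04). The groups overlapped in neither gene. Nnat (-0.43), Dlk1 (-0.64), which encodes a Notch-related surface protein, and Igf2r (-0.37), the receptor that clears Igf2, fell, and Impact rose (0.34). Dlk1 was read at 65.3, 67.1, 54.6 and 67.4 CPM against 113, 93.3 and 91.6 CPM, with the lowest value in induced replicate 4. Calls were lost when a library in parentheses was left out, with an adjusted p of up to 0.109 for Igf2r (induced 4 and 5, no-Cre 6, 7 and 8). The only call in the insulin-like growth factor list of 22 was the rise of Igf2bp1.

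Some genes of energy metabolism and of the ribosome fell by small amounts, against 5.5% of all genes called lower, and most did not pass. In glycolysis and the hypoxia response 7 of 30 fell and none rose (median -0.12), with 2 of the 7 robust. Among nuclear genes of oxidative phosphorylation 8 of 33 fell and none rose (median -0.05), none of them robust. Among 71 ribosomal protein genes 11 fell and none rose (median -0.07), and 61 had a negative difference. 5 of the 11 were robust, none passed with wild type in the fit, and these genes share sequence with many pseudogenes, whose reads the counting may have split. The ribosome biogenesis list had 4 rises and no fall among 21 (median 0.07), against 5.71% of all genes called higher. None of the 4 was robust. In the ATF4 and serine-folate list 3 rose and 2 fell of 24, against 11.2% of all genes called in either direction.

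Polycomb and other chromatin genes gave 6 rises and no fall among 31, against 5.71% of all genes called higher. Their median was -0.02, with 14 positive and 17 negative differences. Bmi1, a member of Polycomb complex 1, was at 84.2, 90.9, 89.1 and 101 CPM in the induced libraries and 61.3, 61.7 and 61 CPM in the no-Cre libraries (0.57 ± 0.05 SE, adjusted p = 2.36e-05). Mtf2, which brings Polycomb complex 2 to its sites, was at 197, 196, 199 and 195 and 145, 141 and 134 CPM (0.49 ± 0.04 SE, adjusted p = 6.36e-06). Neither had overlapping groups. Ezh2 (0.17) and Eed (0.15), subunits of complex 2, and Cbx2 (0.13) and Scmh1 (0.21) of complex 1 rose by less, and 3 of the 6 were robust. Genes of the cell cycle and replication gave 2 rises and 4 falls among 53 (median -0.01), a share near the 11.2% over all genes. Rbl1, which encodes a relative of the retinoblastoma protein, fell (-0.41, adjusted p = 0.0014), Cdc25b, a phosphatase that starts mitosis, fell (-0.27, adjusted p = 0.00444), and Rb1 itself rose (0.29, adjusted p = 0.0126). With the libraries in parentheses left out singly, the adjusted p rose above 0.05, to at most 0.0786 for Eed (induced 4, no-Cre 6 and 8), 0.151 for Cbx2 (induced 4 and 5, no-Cre 6, 7 and 8), 0.142 for Scmh1 (induced 4, no-Cre 6 and 8) and 0.0695 for Rb1 (no-Cre 6).

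Among genes with named symbols that reached a mean of 1 CPM in either group, Lin28a and Eda2r led the rises, followed by Fam212b (1.69), Rgs5, a regulator of G protein signalling found in pericytes (1.22), Trim71 and Cdkn1a. Fam212b was at 2.77, 3.08, 3.14 and 3.24 CPM in the induced libraries and 0.913, 0.655 and 1.3 CPM in the no-Cre libraries. The largest falls were Nsg2, Pkd1l1, a ciliary channel protein (-1.31), the adenylyl cyclase gene Adcy8 (-1.28), Cd247 (-1.23) and Olfm4, a secreted glycoprotein of gut epithelium (-1.21). Olfm4 was at 5.47, 5.78, 5.32 and 6.46 CPM in the induced libraries and 13, 14.2 and 13 CPM in the no-Cre libraries. At a mean of 100 CPM or more in either group, Uhmk1, a kinase (0.65), Gxylt1, a xylosyltransferase (0.53), and Fem1b, the substrate receptor of a ubiquitin ligase (0.50), rose along with Trim71, Ccng1, Fignl2 and Arid3b. The abundant falls were Map1b, a microtubule protein of growing axons (-0.76), Sema5a, an axon guidance protein (-0.60), Pam, the enzyme that amidates peptides (-0.58), Tenm4 (-0.55), Ism1 (-0.51), Wrnip1 (-0.50), Pcdh8, a protocadherin of the segmenting mesoderm (-0.49), and H19. Leaving out a library given in parentheses took the adjusted p above 0.05, at most to 0.0807 for Rgs5 (induced 5, no-Cre 7 and 8), 0.0534 for Adcy8 (no-Cre 6), 0.0935 for Cd247 (no-Cre 6), 0.0579 for Map1b (induced 2, 4 and 5, no-Cre 7 and 8), 0.131 for Tenm4 (induced 4 and 5, no-Cre 6, 7 and 8), 0.0577 for Ism1 (no-Cre 7) and 0.0544 for Pcdh8 (no-Cre 8).

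Markers of other cell types that a dissected tail can hold were read beside these results, with 5.71% of all genes called higher and 5.5% lower. Of 20 tested red blood cell genes none passed (median -0.54), and together they took 0.409% to 0.648% of counts in the induced libraries and 0.596% to 0.986% in the no-Cre libraries (two-sided exact permutation test, p = 0.171). Of 21 tested macrophage genes 3 rose, C1qa, C1qb and Lyz2, 1 of them robust (median 0.24). The 23 listed, tested or not, took 0.0244% to 0.0299% of counts in the induced libraries and 0.0217% to 0.0257% in the no-Cre libraries (two-sided exact permutation test, p = 0.114). Of 21 endothelial genes 2 rose, neither robust, and none fell, and of 21 surface ectoderm genes none passed. The part of these cell types in the gene groups above was not tested. Leaving globin and mitochondrial genes out of the libraries gave 1825 called genes. That step changes the scaling and keeps all other reads from these cells, so it does not address their part.

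The signalling pathways of the tail bud showed calls in both directions. Of 46 Wnt genes 3 rose, all robust, and 6 fell, none robust. Of 29 FGF genes 1 rose and 1 fell, neither robust, and of 41 BMP and TGF-beta genes 4 rose and 3 fell, 2 of the rises robust. Retinoic acid genes gave 2 rises and 2 falls among 20, and Notch genes 1 of each among 23. These shares, set beside 11.2% over all genes, are drawn with the other lists in the plot of counts by gene list.

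**Figure D5:**
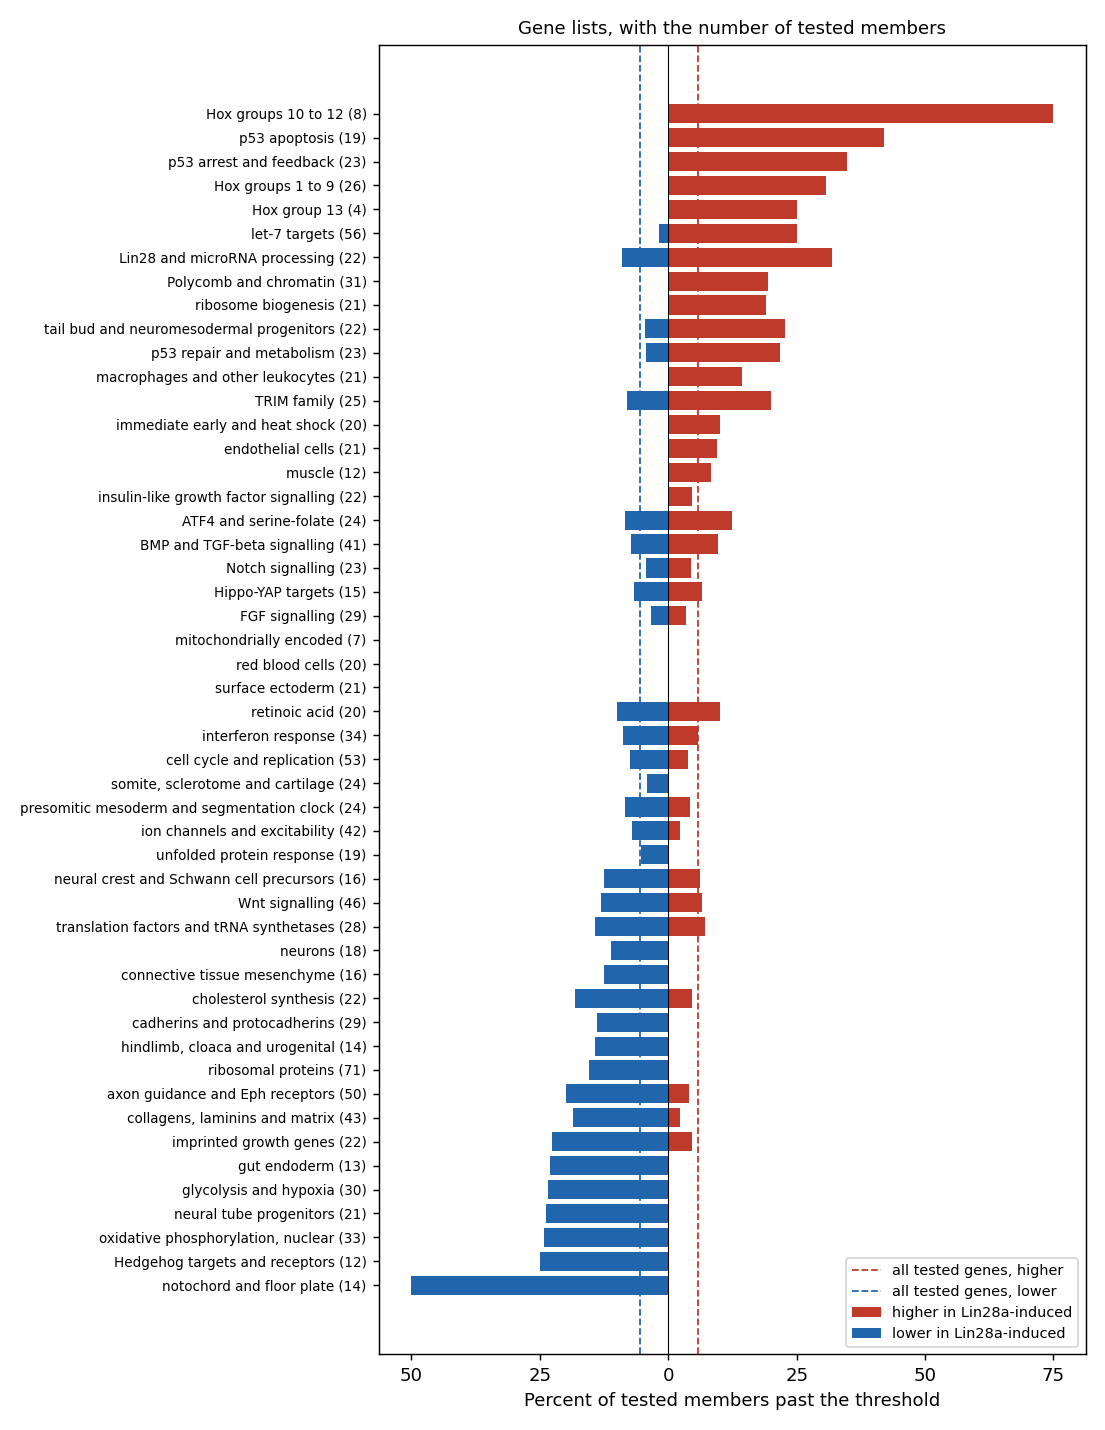
Percent of the tested members of each gene list that were called higher (to the right) or lower (to the left) in the Lin28a-induced libraries, with the share over all genes marked. The Hox groups 10 to 12 list lies farthest to the right and the notochord and floor plate list farthest to the left.

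Between 9.72% and 14.1% of the tested genes of each autosome passed. On the X chromosome 93 of 576 (16.1%) passed, 28 higher and 65 lower, and none of the 4 tested genes on Y or the 11 of the mitochondrial genome passed. With sex as a term in the fit the X chromosome kept 25 rises and 60 falls.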

How the data were processed

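RNA was isolated with the Qiagen Micro RNeasy kit, checked on a Bioanalyzer, made into libraries with the NEB Ultra Directional kit and sequenced as single reads of 75 bases on a NextSeq 500, per the labels' protocols. The authors deposited raw counts per gene symbol, 1 column a library, with no normalization. STAR 2.3.1z4, featureCounts, mm10 and DESeq2 are named in the submitters' processing notes. Not given in the sources used here are the annotation and how strand and multiply aligned reads were treated, so genes that overlap or have near-identical copies (ribosomal proteins, Igf2) are uncertain.

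The 7 libraries held 29300166 to 39517946 counts. From them 15983 of 38720 symbols passed filterByExpr and were fitted in edgeR 4.0.16 (R 4.3.3) with TMM scaling and the robust quasi-likelihood test. p-values were adjusted by Benjamini-Hochberg over all tested genes, at a threshold of 0.05, and an adjusted p in the text comes from this test unless another is named. CPM used TMM-scaled totals, and standard errors are the log2 difference over the root of F. In counts simulated with the estimated dispersions the test called 37 of the 69 genes set to differ by 1.3-fold, 46 of the 67 set to 1.5-fold and 53 of the 64 set to 2-fold. It made 14 false calls among 15783 genes set not to differ. Beside the 37, 46 and 53 correct calls, that is a larger share of the calls than the 0.05 aimed at. This was a single simulation, and it set far fewer genes to differ than the 1791 called in the data. Both shares depend on that number, so those in the data may differ. 15825 tested genes matched GENCODE M21, whose 3′ UTRs were searched for let-7 sites, and microRNAs and promoters came from RefSeq (GRCm38.p6).

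The comparison and the gene lists were chosen with earlier results of these data known. Named genes were Lin28a, Lin28b and Foxd1, the 12 largest rises and falls of at least 1 CPM and the 8 of at least 100 CPM in a group, with groups that did not overlap and predicted symbols left out, up to 6 called members of each list by smallest p, and all members of the 3 p53 lists and of Hox group 13. Not all of these are printed, and some list members are not reported here. Named after their values were seen were Mirlet7i, Hmga2, T, Onecut2, Igdcc3, Hic2, Dna2, Hmga1, Plagl2, Ago1, Dis3l2, Drosha, Iqgap2, Btf3 and Serf1. Alternatives were DESeq2 1.42.0, its size factors in edgeR, limma 3.58.1 (voom), other filters, all 10 libraries in 1 fit, a spread that is not robust, a sex term, no globin or mitochondrial genes, a fold threshold and each library left out. Python 3.11.15, pandas 2.3.3, scipy 1.17.1 and matplotlib 3.10.9 were used as well.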

Additional observations from a re-analysis of the deposited data

Results flagged for a closer look

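Among the 4 Lin28a-induced libraries, the level of each named gene and 8 summed shares of counts were searched for a library far from the other 3 (Dixon's gap over range, past its 95% critical value). Chance puts about 1 in 20 such groups past this value, and 11 of the 280 examined were past it, no more than that. Replicate 4 stood apart in 6 cases. It was lowest for Dlk1 (54.6 CPM, the others 65.3 to 67.4), Efnb3 (37.6 CPM, 41.9 to 42.5), Pitx1 (2.18 CPM, 2.96 to 3.10), Trp53cor1 (0.622 CPM, 1.25 to 1.31) and the summed neuron genes (0.00971% of counts, 0.0106% to 0.0108%), and highest for Gtse1 (72.4 CPM, 69.3 to 69.7). Replicate 3 was highest for Ago4 (11.4 CPM, 9.20 to 9.26) and lowest for Eif3b (504.0 CPM, 540.3 to 542). Replicate 2 was lowest for Igf2bp1 (550.0 CPM, 645 to 665) and Rb1 (29.1 CPM, 32.5 to 32.8), and replicate 5 was highest for Igf2 (1384 CPM, 1239 to 1247). The no-Cre group has 3 libraries and was not searched.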

How the results depend on the processing

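No paired analysis was possible because the induced libraries are numbered 2 to 5 and the no-Cre libraries 6 to 8, so no number is shared. The 1791 called genes became 2095 with DESeq2, 1778 with its size factors in edgeR, 1652 with limma-voom, 2000 with no filter, 1858 with a filter of 1 CPM in 3 libraries, 1636 with a spread that is not robust, 1668 with a sex term and 1825 without globin and mitochondrial genes. With all 10 libraries in 1 fit there were 476 (288 higher and 188 lower), and with a minimum log2 change of 0.5 there were 291 (102 higher and 189 lower), which the added condition itself lowers. With 1 library left out the count ran from 861 to 1894 (469 to 1035 higher, 392 to 859 lower). Falls of notochord genes numbered 1 with all 10 libraries and 2 to 6 with 1 left out, and rises of Hox groups 10 to 12 numbered 2 with all 10 and 3 to 6 with 1 left out. The causes were not tested. Of 223 called genes that are named by rule or in the text, 87 passed with all 10 libraries, and none changed direction under any alternative. Each alternative takes this difference from the same libraries, so direction is only weakly tested. Genes that had not passed changed sign around 0. On the log2 scale Perp was at 0.000679 with no filter, 0.000108 with all 10 libraries and 0.00429 with a sex term, Plk3 at -0.011 with a sex term and -0.0149 with limma-voom, and Polk at 0.00106 with no filter, 0.000366 with the 1 CPM filter and 0.00085 with all 10 libraries. With 1 library left out the log2 difference ran for Bbc3 from -0.0907 to 0.0223, Ddb2 from -0.0997 to 0.0643, Hmga2 from -0.105 to 0.017, Hoxb13 from -0.0697 to 0.0363, Mdm4 from -0.0162 to 0.0936, Perp from -0.0484 to 0.0657, Plk3 from -0.11 to 0.182, Polk from -0.0477 to 0.053. It ran likewise for Prkab1 from -0.0273 to 0.00588, Rprm from -0.114 to 0.148, Rrm2b from -0.012 to 0.118, Sesn1 from -0.0818 to 0.0491, Sfn from -0.142 to 0.0066, Triap1 from -0.054 to 0.0176, Trp73 from -0.0203 to 0.161 and Xpc from -0.0777 to 0.0144. Genes under 1 CPM are limited by depth, and 1.4% of them were called.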
